A study of Mus musculus with 8 samples.

Results

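The pacemaker and conduction system genes *Hcn2*, *Hcn4*, *Cacna1g*, *Cacna1h*, *Tbx3*, *Gja5* and *Irx3* were described by the H3K27Ac peaks around them. A peak was given to a gene when its centre lay nearest to a curated RefSeq transcription start of that gene. By this rule 30 of the 45987 peaks in the table belonged to the 7 genes, 15 of them to *Irx3*, and *Tbx3* had 0. H3K27Ac, the acetylation of lysine 27 on histone H3, marks active promoters and enhancers. It was measured by ChIP-Seq in ventricles of mice at postnatal day 7 (P7), in 2 controls (*Arid1a* f/f, floxed alleles without Cre) and 2 *Arid1a cKO* mutants (aMHC-Cre;*Arid1a* f/f). The Cre is driven by the alpha myosin heavy chain promoter and acts in cardiomyocytes, whereas whole ventricles also hold endothelial cells, fibroblasts and leukocytes. An input library was made for each of the 4 hearts. The comparison asks how H3K27Ac at these genes differs when cardiomyocytes lack ARID1A, which belongs to the SWI/SNF chromatin remodelers.

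Pacemaker cells depolarize by themselves between beats. HCN channels carry the hyperpolarization-activated "funny" current of that phase, and T-type calcium channels open at low voltage and add to it. TBX3 is a transcriptional repressor that keeps pacemaker and atrioventricular conduction cells from becoming working myocardium. GJA5 is the connexin of fast-conducting atrial and Purkinje cells, and IRX3 is an Iroquois homeobox factor of the ventricular conduction system. The sinus node lies in the atrium and was not part of the labelled tissue. In whole ventricles a smaller number of cells carrying a mark and less mark per cell cannot be told apart.

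The values are the authors' group means of normalized reads per peak, with no value for single hearts. The effect of a peak is the log2 mean of *Arid1a cKO* minus that of control. No replicate error and no test can be had from group means, so each difference is a description of these 4 hearts, and an effect of at least 1 in size, a 2-fold difference, served as a mark of size. Group means of 3 normalized reads or fewer were treated as a floor, against which a fold is a lower bound. Over the 45980 peaks with a nearest gene, 10.6% had an effect at or below −1, 4.57% had one at or above 1, and the median effect was 0.01. At *Arid1a* itself the start peak had means of 1607 in control and 1663 in *Arid1a cKO* hearts. This does not check the deletion.

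Markers of ventricular cardiomyocytes (*Myl2*, *Myh6*, *Tnnt2*, *Tnni3*, *Irx4*) all had peaks, with summed means per gene from 44.0 to 3591 reads in control and 53.5 to 3929 in *Arid1a cKO* hearts, or 72.9% to 121% of control. A list of 8 genes of working ventricular cardiomyocytes, which shares 4 of these markers, held 38 peaks with a median effect of −0.21. Of these, 6 (15.8%) were at or below −1 against 10.6% of all peaks, and 2 (5.26%) at or above 1 against 4.57%. Within the list *Kcnj2*, an inward rectifier potassium channel, stood at 38.6% of control with all 3 peaks at or below −1. The other genes of the list stood at 72.9% to 121%. Of the 5 atrial markers, *Sln* had 0 peaks, *Myl7* and *Nppa* stood at 495% and 472% of control, and *Nr2f2* and *Myl4* at 97.9% and 114%. The *Myl7* percent rests on a control sum of only 11.3 reads over 2 peaks. Among the atrial marker peaks, 1 had a control mean under the floor. In control hearts the sums of the atrial markers with peaks ran from 11.3 to 834.5 reads, and in *Arid1a cKO* hearts from 31.4 to 817 reads. All 4 endothelial markers had peaks, at 97.9% to 104% of control, with sums of 282 to 5370 reads in control and 294 to 5515 in *Arid1a cKO*. All 4 fibroblast markers stood at 119% to 149.5% of control, with sums of 224 to 844 and 307 to 1150 reads. The 3 leukocyte markers stood at 114% to 184% of control, with sums of 17.03 to 46.0 and 19.4 to 77.7 reads. The part of these markers in the results below was not tested.

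The sequences that carry the largest differences are shown first, read from GRCm38 (mm10), plus strand. The first is the central 300 bases of the *Hcn4* peak that was near 0 in *Arid1a cKO* hearts, and the second those of the peak downstream of *Gja5*. Both were added after their values were seen, the latter although its nearest start belongs to another gene. The others are the central 200 bases of the peak with the largest effect at *Hcn2*, *Irx3*, *Cacna1g*, *Cacna1h* and *Hcn4* among peaks with more than 3 reads in each group. Capitals mark matches on either strand to 7 short motifs, which are spelled out with the motif counts.
Hcn4 intron, chr9:58847645-58847944: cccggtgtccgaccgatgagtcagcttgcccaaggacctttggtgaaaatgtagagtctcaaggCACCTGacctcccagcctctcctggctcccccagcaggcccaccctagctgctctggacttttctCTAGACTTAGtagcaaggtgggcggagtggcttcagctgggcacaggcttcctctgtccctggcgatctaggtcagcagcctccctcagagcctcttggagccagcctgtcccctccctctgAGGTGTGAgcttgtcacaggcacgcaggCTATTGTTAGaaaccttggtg
Gja5 downstream, chr3:97063205-97063504: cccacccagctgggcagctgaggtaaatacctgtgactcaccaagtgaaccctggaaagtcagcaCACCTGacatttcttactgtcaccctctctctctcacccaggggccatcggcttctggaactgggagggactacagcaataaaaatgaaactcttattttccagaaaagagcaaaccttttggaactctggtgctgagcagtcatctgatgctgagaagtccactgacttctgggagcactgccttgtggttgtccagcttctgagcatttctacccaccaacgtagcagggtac
Hcn2 intron, chr10:79729422-79729621: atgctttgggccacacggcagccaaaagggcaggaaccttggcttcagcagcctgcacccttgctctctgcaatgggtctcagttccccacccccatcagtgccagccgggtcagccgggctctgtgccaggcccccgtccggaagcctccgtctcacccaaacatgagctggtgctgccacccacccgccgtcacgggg
Irx3 downstream, chr8:91787513-91787712: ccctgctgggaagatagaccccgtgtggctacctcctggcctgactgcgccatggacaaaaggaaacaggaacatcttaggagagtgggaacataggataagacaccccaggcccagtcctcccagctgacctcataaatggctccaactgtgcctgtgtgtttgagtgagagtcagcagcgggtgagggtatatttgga
Cacna1g intron, chr11:94450363-94450562: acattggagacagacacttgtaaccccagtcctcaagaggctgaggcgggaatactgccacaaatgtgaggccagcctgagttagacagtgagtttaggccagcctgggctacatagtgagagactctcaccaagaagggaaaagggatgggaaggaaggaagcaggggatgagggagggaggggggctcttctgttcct
Cacna1h intron, chr17:25415375-25415574: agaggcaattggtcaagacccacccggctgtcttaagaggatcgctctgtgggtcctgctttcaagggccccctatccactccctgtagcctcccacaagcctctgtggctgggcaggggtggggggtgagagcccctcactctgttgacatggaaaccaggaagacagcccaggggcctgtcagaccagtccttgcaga
Hcn4 downstream, chr9:58891096-58891295: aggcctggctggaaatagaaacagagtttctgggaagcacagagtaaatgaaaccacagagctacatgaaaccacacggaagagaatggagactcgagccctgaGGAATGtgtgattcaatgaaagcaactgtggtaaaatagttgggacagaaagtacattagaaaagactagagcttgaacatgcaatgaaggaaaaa
The *Hcn4* intron sequence holds 4 matches, MEF2 at 2 places and ZEB and T-box at 1 each, while the sequences from *Hcn2*, *Irx3*, *Cacna1g* and *Cacna1h* hold 0. The windows are unlike, with 300 bases for the former and 200 for the latter. The whole peaks at *Hcn2*, *Irx3*, *Cacna1g* and *Cacna1h* do hold matches.

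H3K27Ac was lower in *Arid1a cKO* hearts at most peaks of these genes. Of the 30 peaks, 24 had an effect below 0 against 48.3% of all peaks, and 12 (40.0%) had one at or below −1, against the 10.6% given above. None of the 30 reached 1, against 4.57% of all peaks, and the highest effect was 0.88. With a mark of 0.5 in place of 1, 18 peaks were lower against 19.5% of all peaks and 2 were higher against 15.2%, and with 1.5, 9 were lower against 6.12% and 0 higher against 1.63%. The median effect was −0.695, with quartiles at −1.76 and −0.17. The 12 peaks with at least a 2-fold lower mean were spread over 5 genes, with 4 at *Cacna1h*, 3 at *Irx3*, 2 each at *Hcn2* and *Hcn4* and 1 at *Cacna1g*. Since peaks of 1 gene share a locus, they are not independent. The genes were also chosen with earlier results of these data known, so the gap to all peaks may partly reflect that choice. Without the 15 *Irx3* peaks the median was −1.14 and 9 of 15 peaks were at or below −1.

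**Figure D1:**
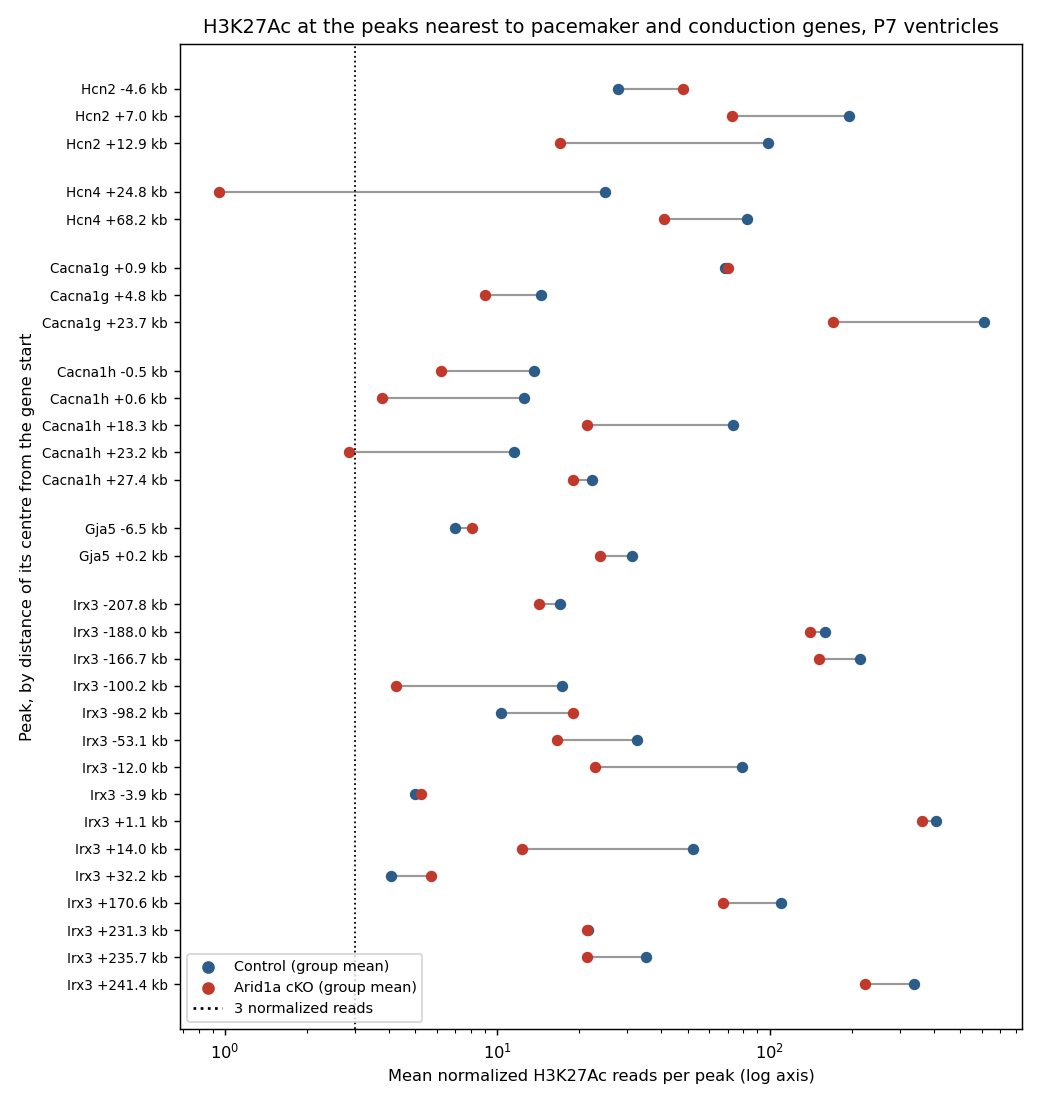
Group means of H3K27Ac in normalized reads per peak (log axis) for the 30 peaks, in rows by gene and by distance of the peak centre from the gene start in kb, with blue points for control, red points for Arid1a cKO and a dotted line at 3 reads. The red point lies left of the blue point in 24 rows, and the widest gap is at the Hcn4 peak at 24.8 kb.

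By this assignment the 4 channel genes had the lowest *Arid1a cKO* sums relative to control. Their 13 peaks had a median effect of −1.43, with 9 (69.2%) at or below −1 against 10.6% of all peaks. In 2 of the 9 the *Arid1a cKO* mean was under the floor. With the means of all peaks of a gene added up, the *Arid1a cKO* sum was 36.0% of control at *Cacna1g*, 38.8% at *Hcn4*, 40.1% at *Cacna1h* and 42.9% at *Hcn2*. The sums at *Irx3* and *Gja5* were 72.3% and 83.0% of control. This order depended on the assignment. With all peaks within 50 kb of a start, *Hcn2* had 8 peaks and stood at 79.7% of control, above *Irx3* at 74.5% and *Gja5* at 43.2%. In that window, and by overlap with the gene body, *Hcn4* kept 1 peak, with an *Arid1a cKO* mean under the floor. Levels between genes were compared per kb of peak. In control hearts the order was *Cacna1g* (76.6 reads per kb), *Hcn2* (43.0), *Irx3* (35.7), *Hcn4* (25.6), *Cacna1h* (16.72) and *Gja5* (16.69). In *Arid1a cKO* hearts *Cacna1g* (27.5 reads per kb) and *Irx3* (25.8) lay close together, followed by *Hcn2* (18.4), *Gja5* (13.9), *Hcn4* (9.93) and *Cacna1h* (6.71). Whether neighbours in either order differ beyond the spread between hearts cannot be said from group means.

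*Hcn4* encodes the main pacemaker channel of the sinus node. The gene lies on chromosome 9 from 58822949 to 58863175 on the plus strand, and no peak covered its start. One of its 2 peaks, from 58847226 to 58848362 in intron 2, lay 24.8 kb downstream of the start. Its mean was 24.9 reads in control and 0.946 reads in *Arid1a cKO* hearts, which is under the floor, so that it was at least 8.31-fold lower. The other peak, from 58889662 to 58892728, lay 68.2 kb downstream, past the end of *Hcn4* and inside an intron of *Neo1*. Its means were 82.7 and 40.8 reads (effect −1.02). Both peaks were therefore past the 2-fold mark, the second by a narrow margin. No other peak lay within 100 kb of the *Hcn4* start. *Neo1*, the gene that hosts the second peak, had 6 peaks nearest to its own start, at 96.0% of control in sum, 1 of them past the 2-fold mark (effect −2.08).

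*Hcn2* encodes an HCN channel that is also expressed in working ventricular muscle. It lies on chromosome 10 from 79716634 to 79736108, and no peak covered its start window. The peak in intron 1 (79722482 to 79724790, 7.0 kb downstream) had means of 195 in control and 72.5 reads in *Arid1a cKO* (effect −1.43, 2.69-fold lower). The peak in intron 4 (79728447 to 79730595, 12.9 kb downstream) had 98.4 and 17.03 reads (effect −2.53, 5.78-fold lower). The third peak, upstream from 79710577 to 79713587, went the other way with 27.7 and 48.2 reads (effect 0.80). The 2 intronic peaks thus stood apart from the upstream one. Within 100 kb of the start, 11 further peaks lay nearest to other genes, and their effects ran from −0.72 to 0.77 with a median of −0.05. None of these 11 was past the 2-fold mark in either direction.

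**Figure D2:**
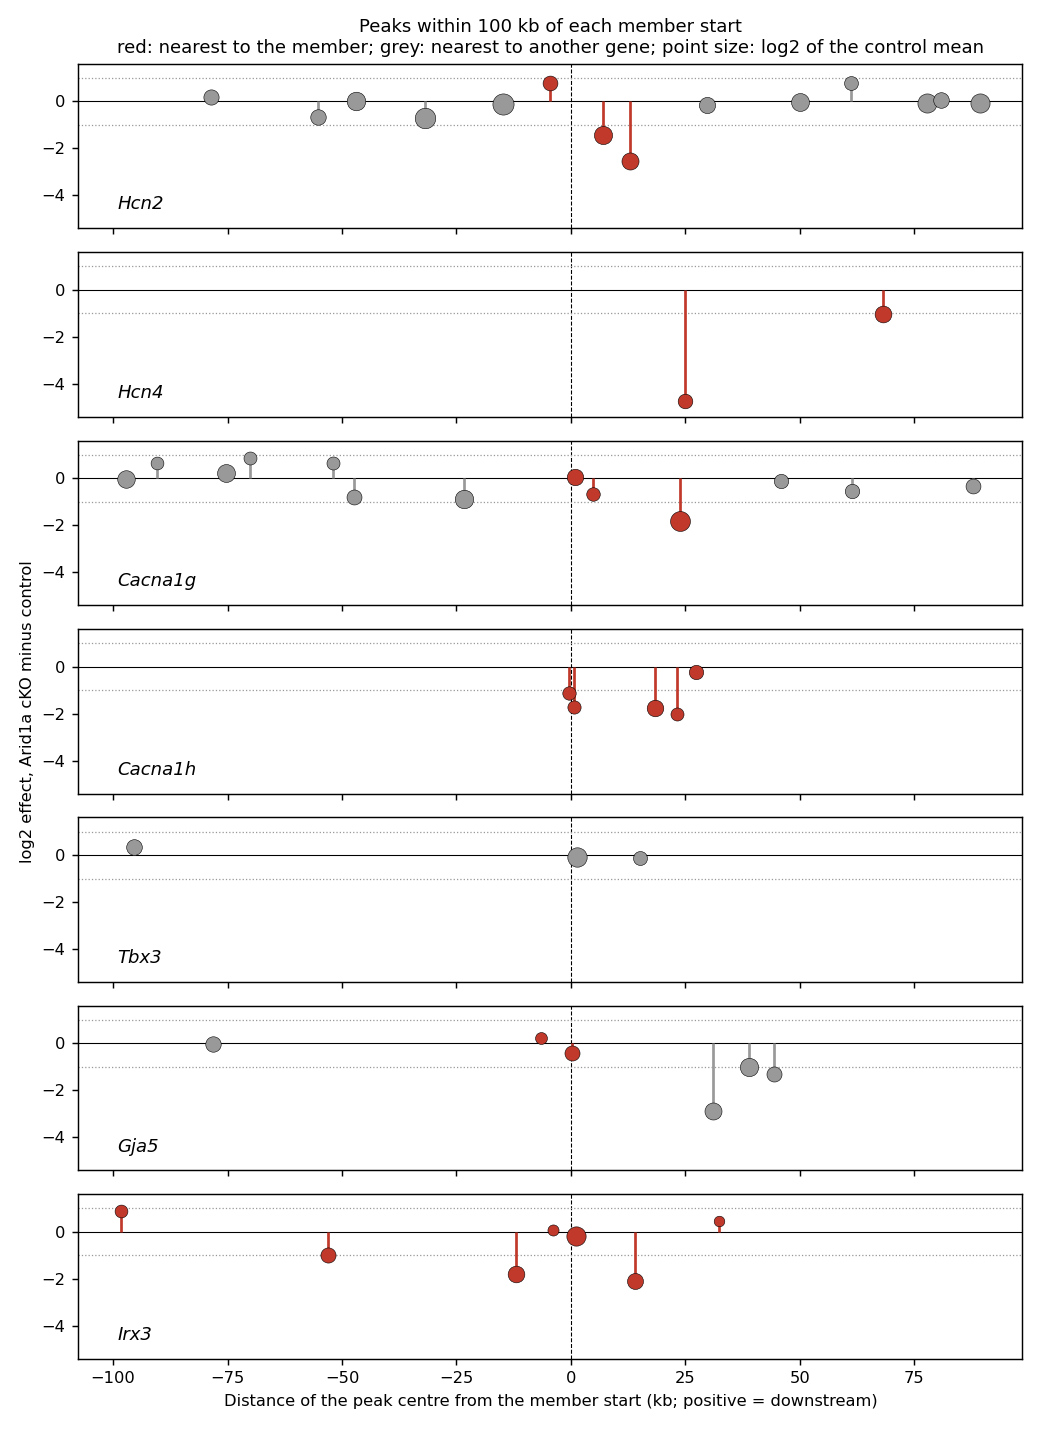
Effect (log2, Arid1a cKO minus control) of each peak within 100 kb of the 7 member starts, against the distance of its centre from the start in kb, with red for peaks nearest to the member, grey for peaks nearest to another gene and point size for the control mean. At Hcn2 and Cacna1g the low red points lie inside the gene among grey points between −0.89 and 0.88, at Gja5 the low points downstream are grey, and at Tbx3 the points lie near 0.

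*Cacna1g* and *Cacna1h* encode the pore-forming subunits of the T-type calcium channels of the heart. *Cacna1g* lies on chromosome 11 from 94408391 to 94474198, minus strand. Its strongest peak, 5245 bp wide from 94447840 to 94453084 in intron 9, lay 23.7 kb downstream of the start. The means there were 613 reads in control and 171 reads in *Arid1a cKO* hearts (effect −1.84, 3.58-fold lower). The peak over its start, from 94471861 to 94474656, had 68.6 and 70.0 reads (effect 0.03). A weak peak between them, 4.82 kb downstream, had 14.4 and 9.0 reads (effect −0.68). At *Cacna1g* the only peak past the 2-fold mark thus lay within the gene, and the start peak was not lower. The 10 other peaks within 100 kb had effects from −0.89 to 0.88. Among them, the peaks starting at 94412110 and 94427756 also lie in *Cacna1g* introns but nearest to the *Abcc3* start. Their effects were −0.56 and −0.13. By overlap with the gene body, 1 of 5 *Cacna1g* peaks was at or below −1.

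*Cacna1h* lies on chromosome 17 from 25374287 to 25433783, minus strand. All 5 of its peaks had an effect below 0 and 4 were at or below −1. The strongest, from 25414112 to 25416837 in intron 2, had means of 73.0 and 21.4 reads (effect −1.77, 3.41-fold lower). In the same intron, the peak from 25409715 to 25411354 had 11.5 reads in control and 2.85 in *Arid1a cKO*, under the floor, and was at least 3.82-fold lower. The third peak of intron 2, from 25405620 to 25407139, had 22.2 and 19.03 reads (effect −0.22). At the start, a pair of weak peaks 56 bp apart had 12.5 and 3.78 reads (5′ UTR exon, effect −1.72) and 13.6 and 6.19 reads (promoter, effect −1.14). *Cacna1h* therefore differed from *Cacna1g* in that its start peaks were also lower, although at levels near the bottom of the table. Among all peaks centred in promoters, 1.56% had an effect at or below −1, but their median control mean was 132.5 reads. The pair lies in the lowest of 4 groups of all peaks by overall concentration, where 16.5% were at or below −1.

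*Tbx3* lies on chromosome 5 from 119670862 to 119684724 and received 0 peaks by the rule, because the starts of 2 antisense transcripts, *Tbx3os1* and *Tbx3os2*, lie nearer to the peaks around it. The peak from 119669322 to 119675259 covers the *Tbx3* start. Its means were 433.5 in control and 413 reads in *Arid1a cKO* hearts (effect −0.07). The peak nearest to *Tbx3os2*, from 119685309 to 119686431, had 17.8 and 16.1 reads (effect −0.14). With protein-coding starts alone, *Tbx3* received 10 peaks up to 539.5 kb away. Their effects ran from −0.14 to 0.50 and their sum was 101% of control. No peak around *Tbx3* was past the 2-fold mark under either assignment.

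*Gja5* lies on chromosome 3 from 97032402 to 97053634. Only 2 peaks were assigned to it. The peak over its start (97031679 to 97033469) had means of 31.3 and 23.8 reads (effect −0.40), and a peak 6.52 kb upstream had 6.96 and 8.06 reads (effect 0.21). Downstream of the gene, 3 peaks were nearest to the start of *4930573H18Rik*, a noncoding gene on the other strand that overlaps the end of *Gja5*. The first, from 97061963 to 97064745 and 31.0 kb from the *Gja5* start, had 95.0 reads in control and 12.8 in *Arid1a cKO* (effect −2.89, 7.41-fold lower). The second, 38.9 kb from the *Gja5* start, had 211 and 105 reads (effect −1.01), and the third, 44.3 kb away, had 31.1 and 12.8 reads (effect −1.28). With protein-coding starts alone these 3 peaks went to *Gja5*, whose sum then stood at 43.2% of control in place of 83.0%. *Hcn2*, *Hcn4*, *Cacna1g* and *Cacna1h* kept their peaks with protein-coding starts alone. Under the other assignments tried, *Cacna1h* had the same 5 peaks throughout. *Hcn2* went from 3 peaks to 8 within 50 kb, and *Cacna1g* from 3 to 6 within 50 kb and 5 by gene body. *Hcn4* kept only 1 of its 2 peaks within 50 kb or by gene body.

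*Irx3* lies on chromosome 8 from 91798511 to 91801654, minus strand, in a region with few other starts, so that its 15 peaks reached from 241 kb downstream to 208 kb upstream. The peak over the gene, 5807 bp wide from 91797645 to 91803451, had means of 407 and 362 reads (effect −0.17). Among the peaks closest to it, a weak one 3.88 kb upstream had 4.99 and 5.24 reads (effect 0.07), and the next on either side were lower. The one 14.0 kb downstream (91786767 to 91788457) had 52.3 reads in control and 12.3 in *Arid1a cKO* (effect −2.09, 4.26-fold lower), and the one 11.97 kb upstream (91812014 to 91815227) had 78.8 and 22.8 reads (effect −1.79, 3.46-fold lower). Another peak past the 2-fold mark lay 100 kb upstream (91901347 to 91902391), with 17.3 and 4.26 reads (effect −2.02). Next to it, 98.2 kb upstream, stood the peak with the highest effect of the whole list, with 10.3 and 19.03 reads (effect 0.88). The 4 peaks inside intron 8 of *Fto*, which *Irx3* received because its start is nearer than that of *Fto*, had effects from −0.72 to −0.01. The 7 peaks over 150 kb from the start all had effects between −0.72 and −0.01, and the 8 nearer ones ranged from −2.09 to 0.88.

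Start peaks and peaks farther away were then set side by side. Of the 30 peaks, 5 overlapped the start window of their gene, from 1000 bp upstream to 100 bp downstream, at *Cacna1g*, *Gja5*, *Irx3* and, with a pair, *Cacna1h*. Their median effect was −0.40, and the 2 at or below −1 were those of *Cacna1h*. The other 25 had a median of −0.71, with 10 at or below −1, so that the share was 40.0% in both sets. For all peaks the split was made by centre only. There, 1.56% of promoter peaks and 11.8% of the others were at or below −1. By position of the centre, 15 of the 30 peaks lay in introns, with 7 at or below −1 against 12.7% of all intronic peaks. Of the 12 intergenic ones, 3 were at or below −1 against 11.4% of all intergenic peaks. The peaks were not particularly wide, with a median width of 1704 bp against 1781 bp for all peaks, and their median GC content was 51.6% against 48.1%.

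**Figure D3:**
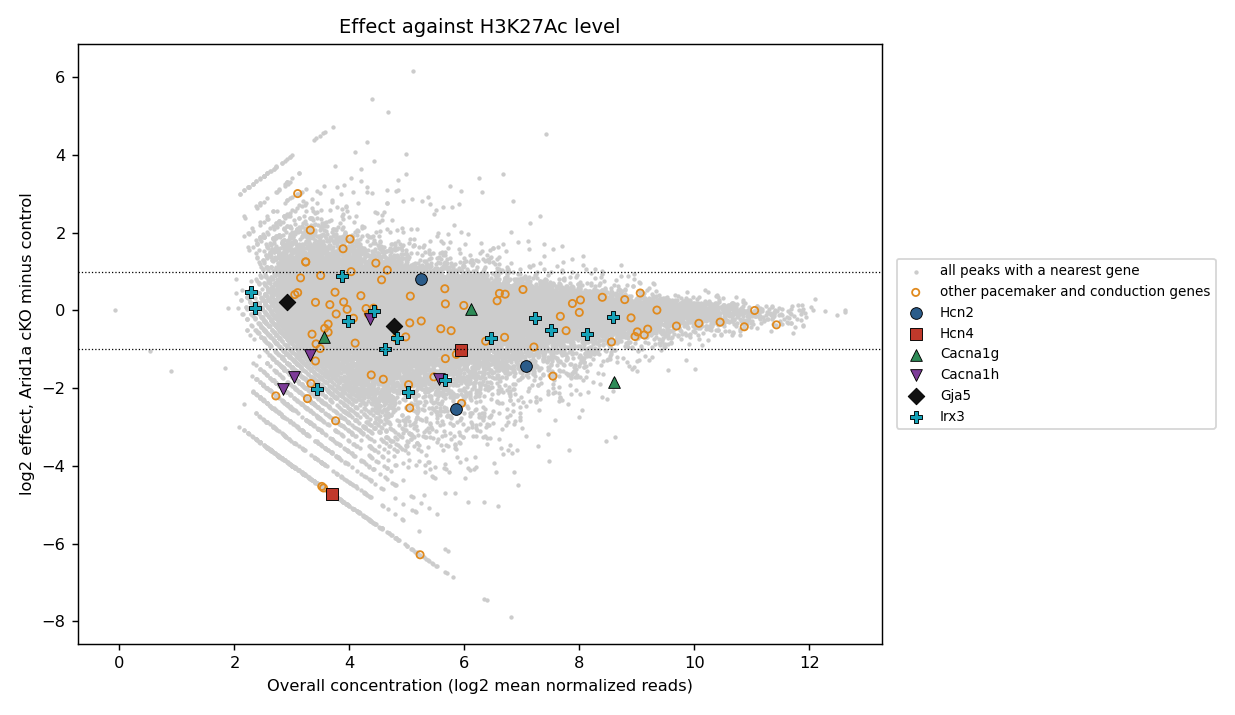
Effect (log2, Arid1a cKO minus control) against the overall concentration (log2 mean normalized reads) for all peaks in grey, the other pacemaker and conduction genes as open circles and the member genes as filled symbols, with dotted lines at −1 and 1. The Cacna1g peak at 8.61 and the Hcn2 peak at 7.07 lie below −1 at levels where few grey points do, and the lowest Hcn4 point lies on the edge set by the smallest values of the table.

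The share of peaks past the 2-fold mark depends on the level, so all peaks were ranked by overall concentration and divided into 4 groups of about equal size. In the group with the highest concentration, 2.75% of all peaks were at or below −1, and among the 6 peaks of these genes in that group 2 were, at *Cacna1g* and *Hcn2*. In the next group 9.13% of all peaks and 4 of 6 were. In the lower groups the shares of all peaks were 14.0% and 16.5%, and the counts were 1 of 7 and 5 of 11.

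Matches to 7 motifs were counted on both strands over whole peaks. These were CTA and TAG with any 4 bases between them for MEF2, AAGGTCA for ESRR, CACCTG for ZEB, CATTCC for TEAD, AGGTGTNA for T-box factors, TNAAGTG for NKX2-5 and AGATAA for GATA, and matches of ZEB and T-box can share bases. MEF2 matched in 10 of the 30 peaks (33.3% against 30.6% of all peaks) and ESRR in 12 (40.0% against 36.6%). Per kb, the 12 peaks at or below −1 held 0.266 MEF2 and 0.495 ESRR matches, the other 18 held 0.0853 and 0.213, and all peaks held 0.175 and 0.230. TEAD stood at 0.723, 0.491 and 0.612 per kb in the same order, ZEB at 0.837, 0.789 and 0.776, NKX2-5 at 0.609, 0.512 and 0.561, and GATA at 0.457, 0.597 and 0.538. T-box matches stood at 0.0761, 0.128 and 0.122 per kb. These rates rest on few matches, 11 for MEF2 and 23 for ESRR over all 30 peaks. From these same data the study had reported MEF2, ESRR and ZEB motifs as enriched in regions with less H3K27Ac in mutants. It reported TEAD motifs in regions that gained it. The rates of these motifs are therefore not independent of that report. Counted by peak, ESRR matched in 5 of the 12 peaks at or below −1 and in 7 of the other 18, and MEF2 in 6 and 4. The intronic *Hcn2* peaks alone held 3 and 4 of the ESRR matches. In the central 500 bp, MEF2 matched in 5 of the 30 peaks against 8.64% of all peaks and ESRR in 4 against 11.3%. Of these, 2 with MEF2 and 2 with ESRR were among the 12 peaks at or below −1.

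Some matches from the peaks at or below −1 are shown with 12 bases on each side, chosen after the counts were seen to show what the letters look like at *Hcn4*, *Hcn2* and *Irx3*; the motif is in capitals and ESRR sites are written on the strand of the match.
Hcn4 intron 2, MEF2, chr9:58847774-58847783: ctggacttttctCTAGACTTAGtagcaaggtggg
Hcn4 intron 2, MEF2, chr9:58847924-58847933: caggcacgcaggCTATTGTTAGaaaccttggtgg
Hcn4 intron 2, T-box, chr9:58847896-58847903: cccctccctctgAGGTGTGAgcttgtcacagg
Hcn2 intron 4, MEF2, chr10:79729807-79729816: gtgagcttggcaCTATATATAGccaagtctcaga
Hcn2 intron 4, ESRR (minus strand), chr10:79728669-79728675: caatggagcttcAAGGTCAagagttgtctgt
Irx3 upstream, MEF2, chr8:91813063-91813072: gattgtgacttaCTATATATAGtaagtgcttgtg
Irx3 upstream, ESRR (minus strand), chr8:91813744-91813750: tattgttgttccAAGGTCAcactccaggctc
The intron 4 peak of *Hcn2* held 4 ESRR matches and 1 MEF2 match, and its intron 1 peak held 3 ESRR matches and 0 MEF2 matches. The *Irx3* peak 11.97 kb upstream held 3 ESRR matches and 1 MEF2 match. At *Cacna1h* none of the 5 peaks held either motif, although 4 were at or below −1, so the letters were not common to all peaks with lower H3K27Ac.

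A list of 32 other genes of pacemaking and conduction was taken for comparison, of which 24 had a peak. Their 87 peaks had a median effect of −0.27. Of these, 17 (19.5%) were at or below −1 against 10.6% of all peaks, and 9 (10.3%) at or above 1 against 4.57%. Lower peaks were found at 9 of these genes and higher ones at 7, so that this wider list went in both directions. The 2 directions differed in level. The higher peaks were all weak in control, with means from 1.89 to 16.6 reads, while those of the lower peaks ran from 10.85 to 284 reads. *Kcnj3*, a subunit of the acetylcholine-activated potassium channel, had all 3 peaks at or below −1. Its promoter peak (chromosome 2, 55433973 to 55436724) had 74.0 reads in control and 0.946 in *Arid1a cKO*, at least 24.7-fold lower.

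*Gjc1*, another connexin, had 3 of 7 peaks at or below −1, between −1.30 and −1.13. *Bves*, a cAMP-binding membrane protein of the Popeye family, had an intronic peak with 284 and 88.0 reads (effect −1.69). Of the transcription factor genes, *Tbx5* had a peak with 16 and 3.32 reads 43.2 kb downstream (effect −2.27), and *Msx2* had its only peak at −1.88. *Prox1* had 1 of 12 peaks at or below −1 (51.6 and 13.7 reads, effect −1.91). Another *Prox1* peak was at 2.07, with 3.84 reads in control, just over the floor, and 16.1 in *Arid1a cKO*. Higher peaks lay at *Tbx18*, with 7.01 and 25.1 reads at the higher of its 2 (effect 1.84), and at the *Etv1* promoter, with 5.58 and 13.3 reads (effect 1.25). *Irx1* had a peak at 1.59, *Cacna1d* at 1.22, *Kcne1* at 1.04 and *Shox2* at 1.0, with control means from 7.41 to 16.6 reads. Farther away, *Irx1* had a peak with 10.85 and 2.36 reads, at least 3.62-fold lower, and *Etv1* one with 1.89 and 15.2 reads, at least 5.08-fold higher. *Cacna1d*, whose channel also takes part in sinus node pacemaking, further had an intronic peak with 21.9 reads in control and 0.946 in *Arid1a cKO*, at least 7.29-fold lower. Among the genes nearest to 0 peaks were *Hcn3*, *Cacna1i*, *Isl1*, *Cntn2*, *Irx5* and *Cpne5*.

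**Figure D4:**
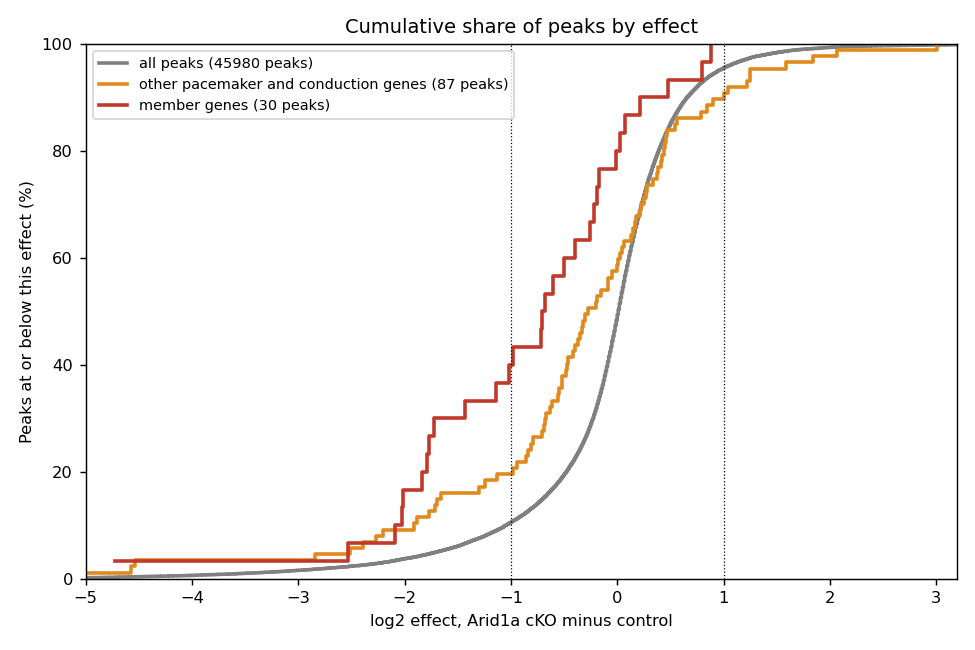
Cumulative share of peaks in percent by effect (log2, Arid1a cKO minus control) for all 45980 peaks, the 87 peaks of other pacemaker and conduction genes and the 30 peaks of the member genes, drawn from −5 to 3.2, beyond which a few peaks lie, with dotted lines at −1 and 1. The line of the member genes reaches 40.0% at −1 where that of all peaks reaches 10.6%, and it ends at 0.88.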

How the data were processed

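H3K27Ac ChIP-Seq and input libraries were made from P7 ventricles of 2 control and 2 *Arid1a cKO* mice, and samples were grouped by title. Per the study's methods, BWA 0.7.17-r1188 placed the reads on mm10, HOMER findPeaks was run against merged inputs, peaks seen in 2 or more samples were kept, and the authors used DiffBind 2.12.0 and DESeq2 1.24.0. The deposited values used here are log2 mean normalized reads per peak, overall and per group, given to 2 decimals. Library scaling and input subtraction are not given in the sources used here, and with 0 columns of single samples the depth is unknown. The deposited columns of fold changes and p-values hold the study's own comparison and were not used.

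Peaks were joined to GRCm38.p6 and its 45756 curated RefSeq transcripts. The last peak of each of 21 chromosomes ended inside the reference, and 7 peaks on unplaced sequences were left out. A centre within 1000 bp upstream to 100 bp downstream of a start was a promoter. Genes named outside the members were those of the comparison list with a peak past 2-fold and over 3 reads in both groups; others named are marker genes, *Kcnj2* of the working ventricular list (chosen after its values were seen), hosts or neighbours of member peaks, and genes with 0 peaks or with a peak at the floor. Some genes of the comparison list count in its totals but are not reported here by name. The central window at the *Gja5* start reaches a UTR and is not printed. Members and lists were chosen with earlier results of these data known. Steps were tested on simulated data. Python 3.11.15, numpy 2.4.6, pandas 2.3.3 and matplotlib 3.10.9 were used.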

Additional observations from a re-analysis of the deposited data

How the results depend on the processing

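The table has group means only, so no replicate could be left out. No paired analysis was possible because the columns carry no replicate numbers and no result comes from a test. A move of at least 0.1 on the log2 scale was counted as a change for medians and summed ratios. A count was taken as changed when it differed by a factor of more than 1.5 or moved from or to 0. The median effect of −0.695 over 30 peaks became −0.40 with protein-coding starts alone (43 peaks, 10 of them at *Tbx3*), and −1.14 without *Irx3*, an alternative chosen after seeing the data. The log2 ratio of the summed means of all members, −0.806, became −0.645 with protein-coding starts, −0.504 with all peaks within 50 kb of a start, and −1.33 without *Irx3*. The 12 peaks at or below −1 became 7 without the lowest of the 4 concentration groups (19 peaks left). They became 15 of 43 with protein-coding starts, 13 of 32 within 50 kb and 8 of 18 by gene body, which stayed within the limit for counts. With 0.5 as the mark, 2 peaks were higher in place of 0. Centring on the median of all peaks or of the highest concentration group moved none of these values past its limit. The promoter median of −1.14 rests on 1 peak and became −0.40 over the 5 peaks that overlap a start window. Motif matches numbered 223 in whole peaks and 45 in the central 500 bp. For the 87 peaks of the other pacemaker and conduction genes, a mark of 0.5 gave 33 lower and 14 higher, against 19.5% and 15.2% of all peaks. A mark of 1.5 gave 4 higher in place of 9, against 1.63% of all peaks. Both marks were chosen after seeing the data. For the 6 genes with peaks, the summed ratio of each gene stayed below 0 in all 53 alternatives run and moved in 11 of them. Some of the 53 could not move by design. Leaving out *Irx3* keeps the peaks of every other gene, and the centrings subtract only 0.01 or −0.03, less than the limit of 0.1. The larger moves were those of *Hcn2* from 42.8% to 79.7% of control within 50 kb, of *Gja5* from 83.0% to 43.2% with protein-coding starts or within 50 kb, and of *Hcn4*, from 38.8% to 3.79%, a mean under the floor, within 50 kb or by gene body. *Tbx3*, with 0 peaks by the rule, is not among them and stood at 101% with protein-coding starts, 95.1% within 50 kb and 95.3% by gene body. The cause of these moves was not tested beyond the different peaks counted.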
